A study of Arabidopsis thaliana with 28 samples.

Results

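The 51 probe sets described here had their highest signal after 4 h in developing leaves of Arabidopsis given low light at ambient CO2. They were chosen by their own values. The mean of log2(signal + 10) at 4 h had to lie at least 0.4 above the highest mean at any other time, and the mean signal at 4 h had to reach 50. Of 22746 probe sets other than controls, 51 met this, and 3126 had their highest mean at 4 h at any margin and level. The clock gene GI also met it and was left out. PDC2 and CCL were to be left out as well, but no probe set listed under either name met it. Of the 51 members, 31 are listed with 1 gene, 1 with several and 19 with none.

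Transcripts of Col-0 leaves were measured on Affymetrix ATH1 arrays, in which each probe set is read by its fluorescence. Mature leaves after 24 h of treatment are held by 2 replicates, and developing leaves of insertions 19 to 21 after 2, 4, 12, 24, 48 and 96 h by 4 replicates at each time, where replicate 1 at 24 h is the mean of 2 arrays. All plants were wild type, grown at 20 °C with a 10 h light period, and all groups share the low light and ambient CO2 treatment of the series title. No untreated array and no clock time of sampling is used here, so a difference between times gives no effect of low light itself, and hours of treatment cannot be told apart from time of day. The treatment notes carry the undefined letters AS, and whether low light fell on the harvested leaves or on others is not stated. Nothing says that replicates came from separate plants, and p-values then measure only the spread between these samples.

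The named members fall into a few kinds of gene. COR15A and COR15B are cold-regulated genes whose proteins enter the chloroplast and protect its membranes during freezing, and related dehydrins accumulate when tissue dries or cools. PORB is a protochlorophyllide oxidoreductase, the enzyme that needs light to make chlorophyllide in greening leaves. Other members act in dividing cells, where topoisomerase II untangles chromosomes and kinesins of the phragmoplast help to place the new cell wall. Developing leaves still contain dividing cells, and mature leaves have largely stopped dividing.

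Array medians ran from 40.8 to 48.1. The log2 ratio of 3' to 5' actin probes, a sign of RNA quality, averaged 0.89 ± 0.10 at 4 h, against 0.73 ± 0.16 at 2 h and 0.68 ± 0.16 at 12 h (SD, n = 4 each) and 0.77 to 0.85 at later times, and that of ubiquitin probes 1.91 ± 0.28 at 4 h, against 1.75 ± 0.33 at 2 h and 1.61 ± 0.25 at 12 h and 1.47 to 1.54 at later times. Both were highest at 4 h. The ratio of GAPDH probes was not, at 0.09 ± 0.13 at 4 h, against 0.12 ± 0.11 at 2 h and 0.06 ± 0.07 at 12 h. At later times it averaged 0.04 to 0.17. The part of RNA quality in the 4 h maximum was not tested. Of 31 marker genes of leaf and other tissues, 4 were measured under a name and none was a member. With 51 members among 22746 probe sets, nothing is read from that absence. The mesophyll genes RCA and PSAN were strong, at 3319.7 ± 458 and 2254 ± 234 at 4 h, the guard cell gene FMA was at 60.9 ± 7.85, and the root gene PYK10 was low at 26.7 ± 12.7. Markers of epidermis, phloem, xylem, meristem and flower were not measured under a name, so signal from those tissues was not examined.

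Across the 51 members the margin of 4 h over the next highest time ran from 0.40 to 1.47 with a median of 0.52 on the log2 scale. The mean signal at 4 h ran from 51.1 to 3056 with a median of 126. The next highest mean was at 2 h for 25 members, at 12 h for 22, at 96 h for 3 and at 24 h for 1. The lowest mean was most often at 96 h, in 29 members, followed by 24 h in 10, 48 h in 9, 12 h in 2 and 2 h in 1. The median of the 4 h mean minus another was 0.58 for 2 h, 0.63 for 12 h, 1.15 for 24 h, 1.26 for 48 h and 1.38 for 96 h. In 37 members the means at 24, 48 and 96 h were all below those at both 2 h and 12 h. The same count was not made over all probe sets, so nothing is read from it.

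In 37 members every 4 h value lay above every value of the other developing groups. Of all probe sets tested 0.564% did so, and since the choice of members used these values nothing is read from the count. Replicates at 4 h varied with a median coefficient of variation of 13.9%. The highest 4 h value came from replicate 1 in 17 members, from replicate 4 in 15, from replicate 3 in 10 and from replicate 2 in 9, so no single replicate held the highest value throughout. Just inside the margin lay AT1G56300 at 0.402, AT2G16270 at 0.403 and ZCF125 at 0.407, and just outside it BGLU44 and AT3G53370 at 0.397 and AT1G67660 at 0.396.

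**Figure D1:**
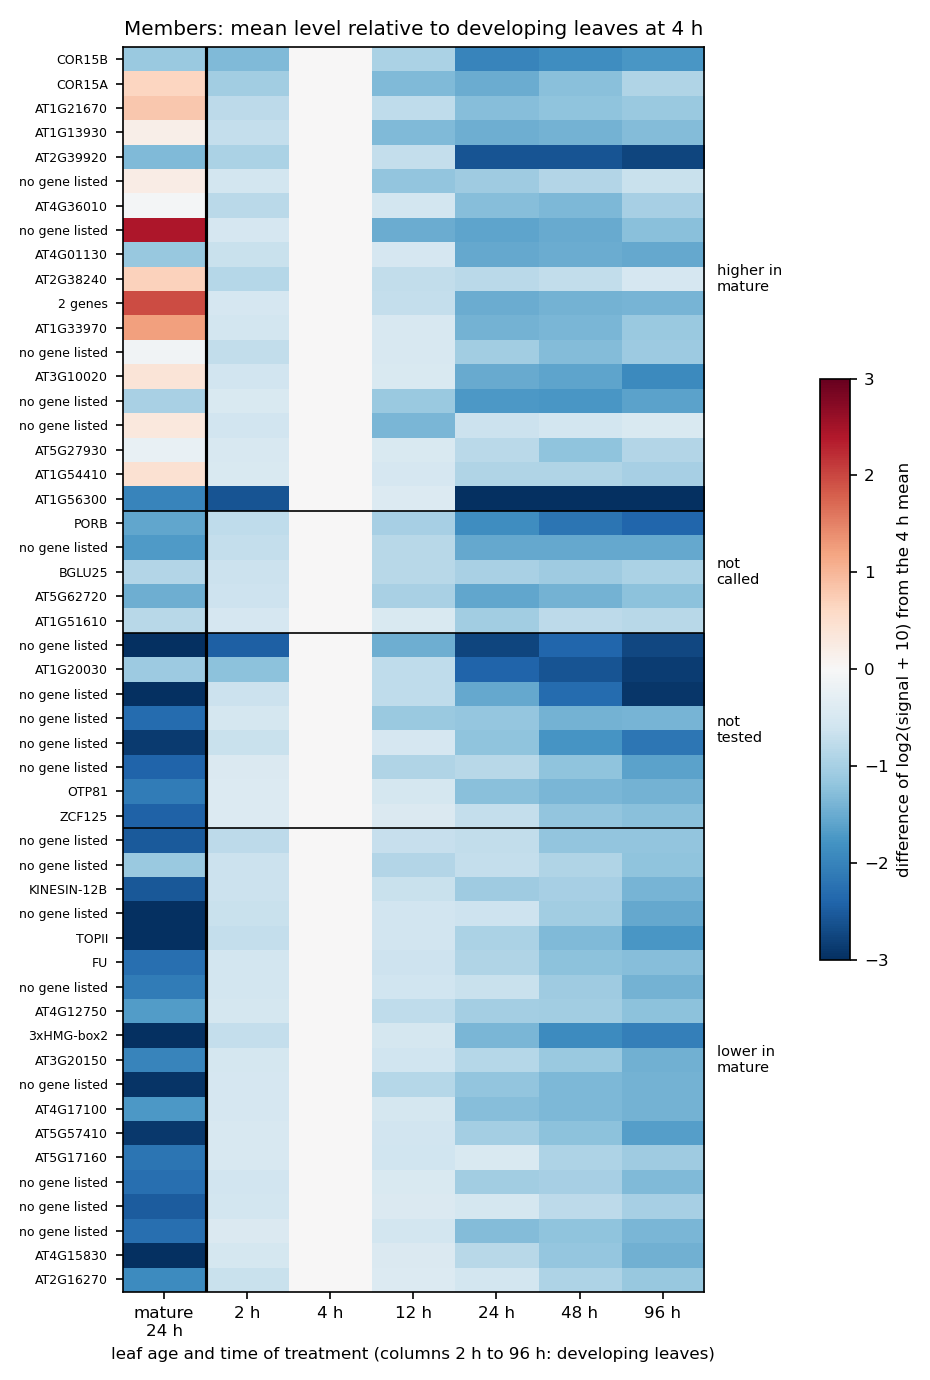
Mean level of each of the 51 members (rows) in mature leaves at 24 h and in developing leaves at 2 to 96 h (columns), as the difference of log2(signal + 10) from the 4 h developing mean. Rows are grouped by the test of mature against developing leaves at 24 h and ordered by margin within a group. The 4 h column is 0 by construction, and the mature column runs from far below it to above it, with 11 members above.

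The cold-regulated genes COR15B and COR15A had the largest margins among named members. COR15B gave signals of 127, 147, 138 and 189 (2 h), 463, 295, 391 and 433 (4 h), 292, 151, 203 and 169 (12 h), 75.2, 94.4, 88.2 and 113 (24 h), 76.9, 105, 107 and 114 (48 h), and 113, 115, 139 and 76.4 (96 h). The 4 h values lay above all others, the lowest of them only just above replicate 1 at 12 h, and the 12 h values all lay above those at 24 h. COR15A gave signals of 90.8, 126, 72.8 and 117 (2 h), 159, 221, 203 and 294 (4 h), 86.2, 60.9, 105 and 73.8 (12 h), 77.6, 68.0, 75.6 and 59.9 (24 h), 76.9, 76.3, 81.0 and 102 (48 h), and 153, 105, 104 and 88.4 (96 h). All its 4 h values lay above those of every other time, with the lowest of them close to the highest at 96 h. These genes lie next to each other on the chromosome in the TAIR10.1 annotation, the one such pair among the members.

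Of the 14 genes in the cold and dehydration list, 4 were measured under a name. Of these, COR15A and COR15B are members, while the dehydrin COR47 and the dehydrin LTI30 are not. COR47 averaged 263 ± 34.9 at 2 h, 304 ± 61.3 at 4 h and 240.1 ± 26.5 at 12 h, so its 4 h mean was the highest by less than the margin. LTI30 averaged 53.6 ± 8.68 at 2 h, 47.1 ± 7.07 at 4 h and 44.1 ± 1.80 at 12 h, with no maximum at 4 h (SD, n = 4).

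All 4 were higher in mature than in developing leaves at 24 h, where 27.1% of all probe sets tested were higher, and the list's median difference was 1.37 on the log2 scale against -0.10 over all probe sets. COR15A gave 221 and 463 in mature leaves against 77.6, 68.0, 75.6 and 59.9 in developing leaves, a log2 difference (± SE) of 2.05 ± 0.25 (adjusted p = 3.6e-08). COR15B gave 168 and 183 against 75.2, 94.4, 88.2 and 113, a difference of 0.86 ± 0.22 (adjusted p = 0.0011). For both genes the mature values lay above every developing value at 24 h. The COR15A values of mature leaves reach or pass its 4 h values in developing leaves, whereas those of COR15B stay below its 4 h values. COR47 differed by 1.72 (adjusted p = 2.1e-09) and LTI30 by 1.03 (adjusted p = 4.2e-05).

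Within developing leaves 2 of the 4 were lower at 24 h than at 2 h, where 6.29% of all probe sets were. COR15B differed by -0.64 ± 0.18 (adjusted p = 0.017) and was no longer called without replicate 1 at 24 h (adjusted p = 0.065) or without replicate 4 at 2 h (adjusted p = 0.077). LTI30 differed by -0.64 (adjusted p = 0.0073). COR15A differed by -0.45 ± 0.20 (adjusted p = 0.15) and COR47 by -0.42 (adjusted p = 0.056). AT1G54410, the dehydrin HIRD11, is a member outside that list and was looked at after its values were seen. Its signal was 1327 and 1697 in mature leaves against 832, 522, 483 and 526 in developing leaves at 24 h, with no overlap, and the difference was 1.37 ± 0.19 (adjusted p = 6.3e-07).

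PORB had the strongest signal of all members. It gave 1999.8, 1831, 1479.7 and 1930.2 (2 h), 2633, 2802, 3573 and 3217 (4 h), 1503, 1488, 1521 and 1529 (12 h), 733, 869.8, 797 and 938 (24 h), 809.9, 731, 470.4 and 682 (48 h), and 462, 634, 597 and 624 (96 h). The 4 h values were all above the others, the 2 h and 12 h values came next, and the values of 24 h to 96 h were no higher than 938 and overlapped between neighbouring times. The log2 difference was -1.10 ± 0.14 (adjusted p = 1.6e-06) at 24 h against 2 h and -0.85 ± 0.14 (adjusted p = 9.7e-06) at 24 h against 12 h. It was -0.52 ± 0.14 (adjusted p = 0.014) at 96 h against 24 h, a call lost with the second of the 24 h replicate 1 arrays alone (adjusted p = 0.056), without replicate 4 at 24 h (adjusted p = 0.054) or without replicate 1 at 96 h (adjusted p = 0.070).

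PORB signals of mature leaves, 1107 and 946, lay above the 4 of developing leaves at 24 h, but the difference of 0.30 ± 0.17 did not pass the test (adjusted p = 0.12). The chlorophyll synthesis list holds 8 genes, of which 1 more, the magnesium protoporphyrin methyltransferase CHLM, was measured under a name. CHLM averaged 1303 ± 50.4 at 4 h, and at the other times of the first day between 1136 and 1326 (SD, n = 4). It was higher in mature leaves by 0.32 (adjusted p = 0.019), and no comparison among developing leaves passed the test for it.

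**Figure D2:**
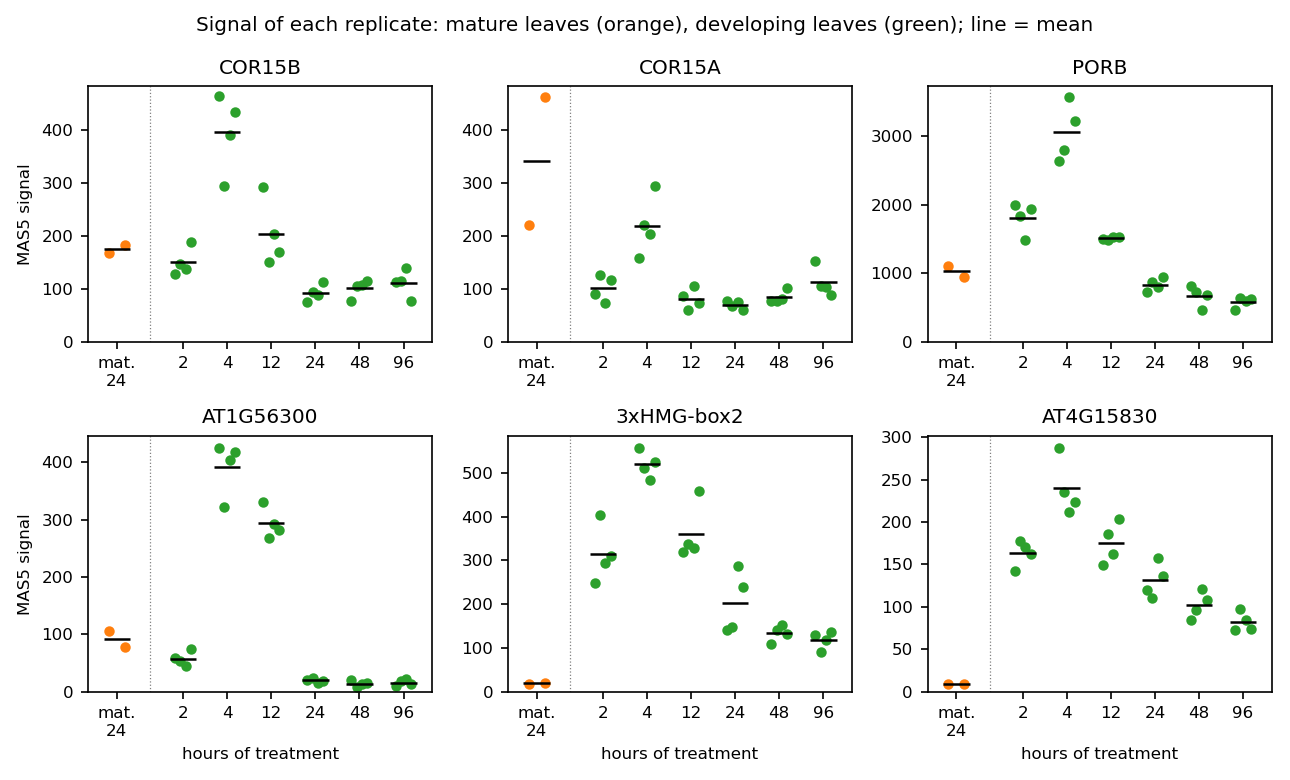
MAS5 signal of each replicate (points) with the group mean (line) for 6 members, in mature leaves at 24 h (orange, left) and developing leaves at 2, 4, 12, 24, 48 and 96 h (green). Each axis starts at 0. In mature leaves COR15A is at 221 and 463, above developing leaves at 24 h, while 3xHMG-box2 and AT4G15830 are at 20.8 or less, below every developing value.

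Of the members with known roles, 4 act in mitosis or cytokinesis: TOPII, which is DNA topoisomerase II, 3xHMG-box2, a protein that binds mitotic chromosomes, KINESIN-12B, a kinesin of the phragmoplast, and FU, a kinase needed for cytokinesis. TOPII gave 56.8, 146, 153 and 125 (2 h), 200.1, 164, 186 and 219 (4 h), 99.6, 94.5, 169.8 and 151 (12 h), 58.1, 96.9, 133 and 103 (24 h), 48.3, 67.9, 84.9 and 86.6 (48 h), and 62.2, 50.9, 35.1 and 57.4 (96 h). Its lowest 4 h value lay below the highest value at 12 h, and its values at 96 h all lay below those of 4 h and 12 h. 3xHMG-box2 gave 249, 404, 294 and 311 (2 h), 558, 511, 483 and 526 (4 h), 318, 337, 328 and 458 (12 h), 141, 148, 288 and 238 (24 h), 109, 140.4, 153 and 131 (48 h), and 129, 90.2, 118 and 137 (96 h). Its 4 h values all lay above the rest, and its values at 48 h and 96 h were, apart from replicate 3 at 48 h, below the lowest at 24 h.

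KINESIN-12B gave 34.3, 46.3, 36.5 and 39.5 (2 h), 75.1, 53.9, 68.3 and 68.3 (4 h), 34.0, 48.1, 35.2 and 36.2 (12 h), 26.3, 16.1, 31.5 and 35.3 (24 h), 26.3, 31.3, 29.0 and 25.2 (48 h), and 20.7, 7.68, 27.6 and 23.5 (96 h). FU gave 56.6, 107, 110.0 and 77.6 (2 h), 119, 133, 119.7 and 149.9 (4 h), 63.8, 88.5, 93.4 and 79.0 (12 h), 56.8, 60.6, 69.5 and 73.2 (24 h), 47.9, 46.1, 53.3 and 51.3 (48 h), and 41.4, 47.1, 47.0 and 54.4 (96 h). In both genes the 4 h values lay above all values of the other times. Replicate 1 at 2 h was the lowest of its group for TOPII, 3xHMG-box2, FU and KINESIN-12B.

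All 4 were much lower in mature leaves, where 37.5% of all probe sets tested were lower. TOPII was at 2.46 and 2.06 in mature leaves against 58.1, 96.9, 133 and 103 in developing leaves at 24 h, a difference of -3.08 ± 0.29 (adjusted p = 5.1e-10). 3xHMG-box2 was at 18.3 and 20.8 against 141, 148, 288 and 238, a difference of -2.79 ± 0.21 (adjusted p = 7.1e-12). KINESIN-12B was at 0.888 and 5.12 against 26.3, 16.1, 31.5 and 35.3, a difference of -1.51 ± 0.23 (adjusted p = 2.0e-06). FU was at 17.8 and 20.9 against 56.8, 60.6, 69.5 and 73.2, a difference of -1.35 ± 0.18 (adjusted p = 1.5e-07). None of the mature values overlapped the developing ones. KINESIN-12B passed the filter on low signal only through its 4 h values, so no weight is put on its test. Detection calls were not used, so how far signals as low as these stand above background is not known. In whole leaves, fewer dividing cells and less RNA per cell cannot be told apart.

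A list of 30 mitosis and cytokinesis genes, drawn up after the members' values were seen, had 9 measured under a name, the 4 members among them. All 9 were lower in mature leaves, where 37.5% of all probe sets tested were lower, and the median log2 difference was -1.51. That median is the value of KINESIN-12B, which passed the filter only through its 4 h values. Since the list was drawn up with the members' values known and holds 4 of them, nothing is read from its counts. The other 5 were the Aurora kinases AUR1, AUR2 and AUR3, the chromosome protein 3xHMG-box1 and the centromere histone CENH3, with differences from -1.98 for 3xHMG-box1 to -0.61 for CENH3. Among these, AUR1 averaged 177 ± 19.4 at 4 h and 176 ± 19.5 at 12 h, and 3xHMG-box1 averaged 133 ± 34.7 at 4 h and 137 ± 12.1 at 12 h (SD, n = 4). CENH3 averaged 49.8 ± 10.7 at 4 h and 29.97 ± 4.11 at 12 h, and none of the 5 is a member. At 24 h against 12 h 4 of the 9 were lower, against 22.2% of all probe sets tested, and at 24 h against 2 h 1 was lower, against 6.29%. At 12 h against 2 h 2 of the 9 were higher and 1 lower, against 20.4% and 18.4%. A second list of 10 genes of DNA replication and histones, drawn up at the same point, had 1 measured under a name and no member. That gene, PRL, a subunit of the replication helicase, averaged 270.1 ± 55.9 at 2 h, 218 ± 35.4 at 4 h and 114 ± 11.1 at 12 h, with its highest mean at 2 h.

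AT3G20150 and ZCF125 belong to the kinesin family of motor proteins. AT3G20150 gave 29.4, 51.9, 52.4 and 42.2 (2 h), 68.4, 59.7, 70.3 and 66.9 (4 h), 34.7, 39.8, 42.8 and 44.3 (12 h), 24.4, 28.8, 37.0 and 39.6 (24 h), 19.1, 26.3, 27.4 and 28.9 (48 h), and 20.5, 13.9, 19.1 and 19.2 (96 h). Its 4 h values stood above the rest, and its mature values of 8.27 and 10.1 lay below all of the developing ones at 24 h, with a difference of -1.13 ± 0.18 (adjusted p = 3.0e-06). ZCF125 was too low over all samples to be tested and was looked at after its values were seen. It averaged 51.1 ± 6.44 at 4 h (SD, n = 4), and its 2 h values of 19.3, 57.4, 41.1 and 34.0 overlapped those of 4 h. In mature leaves it was at 2.20 and 0.493, against 18.2, 26.4, 37.7 and 28.3 in developing leaves at 24 h.

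AT4G15830, which encodes a protein with ARM repeats, gave 143, 178, 171 and 163 (2 h), 288, 235, 212 and 224 (4 h), 149, 186, 162 and 203 (12 h), 119, 111, 158 and 136 (24 h), 84.6, 96.8, 121 and 108 (48 h), and 72.3, 98.0, 84.3 and 73.6 (96 h). It was low in mature leaves, at 8.74 and 9.07 against 119, 111, 158 and 136 in developing leaves at 24 h, a difference of -2.89 ± 0.15 (adjusted p = 4.1e-15). AT5G57410 gave 8.08 and 12.8 in mature leaves against 57.2, 53.7, 88.5 and 66.3, a difference of -1.89 ± 0.17 (adjusted p = 1.4e-10). AT5G17160 gave 20.4 and 25.6 against 97.1, 77.6, 108 and 117, a difference of -1.73 ± 0.18 (adjusted p = 3.1e-09). AT2G16270, looked at after its values were seen, gave 13.2 and 5.74 against 37.9, 29.2, 51.1 and 42.0, a difference of -1.37 ± 0.20 (adjusted p = 7.2e-07). In these 4 genes no mature value reached the lowest developing value.

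The homeodomain-like gene AT4G12750 and AT4G17100 were lower in mature leaves by less. AT4G12750 gave 36.8 and 34.4 in mature leaves against 52.1, 57.4, 60.9 and 82.1 in developing leaves, a difference of -0.67 ± 0.17 (adjusted p = 0.0011). AT4G17100 gave 46.4 and 41.6 against 54.9, 75.8, 59.2 and 66.4, a difference of -0.45 ± 0.18 (adjusted p = 0.028). The AT4G17100 call was lost in 7 settings, among them quantile normalization (adjusted p = 0.060), median centring (adjusted p = 0.062) and the omission of mature replicate 1 (adjusted p = 0.061) or mature replicate 2 (adjusted p = 0.16).

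Of the 51 members, 43 passed the filter on low signal and were tested, and 39 of these pass it without the 4 h arrays as well. The other 4, AT2G39920, KINESIN-12B, AT4G36010 and 261086_at, passed only through their 4 h values, so no weight is put on their tests. A fit filtered without the 4 h arrays, chosen after seeing the data, tested the 39 among 13674 probe sets. At 24 h against 2 h 22 of the 39 were lower and 0 higher, against 849 and 803 of all 13674. At 24 h against 12 h the counts were 22 and 1, against 3020 and 2739. At 12 h against 2 h they were 7 and 1, against 2507 and 2784. At 96 h against 24 h they were 11 and 0, against 588 and 642. In mature leaves 17 were lower and 17 higher, against 5108 and 3727 of all 13674. The remaining comparisons concern those 43 only. None of them sets 4 h against another group, but the 4 h arrays enter the filter and the shared estimate of the spread. The rule that chose the members also used the means of the other developing times. Each comparison shares arrays with another, so their calls are not independent of one another.

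At 24 h against 2 h, 23 of the 43 were lower and none was higher, where 12.1% of all probe sets tested were called, 6.29% lower and 5.85% higher. The median difference was -0.48 in the members against 0.01 over all probe sets. The rule set each of these times only against 4 h and so did not fix the direction between them. Their means still entered the rule, which left out probe sets highest at any time other than 4 h. All probe sets are therefore not a like background here or in the other comparisons of developing leaves. Among members with 1 gene that pass the filter without the 4 h arrays, the largest fall was in AT1G56300, which encodes a J-domain co-chaperone. It gave 19.5, 23.8, 15.7 and 19.2 at 24 h against 58.8, 52.9, 44.2 and 74.0 at 2 h, a difference of -1.18 ± 0.16 (adjusted p = 6.9e-06). PORB followed. AT2G39920, a gene of an acid phosphatase family, gave 13.1, 9.56, 8.04 and 6.14 against 46.1, 49.6, 44.7 and 58.7, a difference of -1.64 ± 0.17 (adjusted p = 7.5e-08). It passed the filter only through its 4 h values, so no weight is put on its test. In AT1G56300 and AT2G39920 the groups did not overlap.

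Smaller falls of other genes kept their call in every setting in which the gene was tested. AT3G10020, a gene known to respond to low oxygen, differed by -0.94 ± 0.19 (adjusted p = 0.001), AT5G62720, a membrane protein of the HPP family, by -0.93 ± 0.13 (adjusted p = 1.4e-05), and AT1G33970, a GTP-binding protein of the IAN family, by -0.86 ± 0.16 (adjusted p = 4.5e-04). AT4G01130, a GDSL lipase, differed by -0.86 ± 0.13 (adjusted p = 3.8e-05), AT4G17100 by -0.77 ± 0.14 (adjusted p = 4.8e-04), AT1G13930 by -0.74 ± 0.12 (adjusted p = 1.3e-04) and AT5G57410 by -0.53 ± 0.14 (adjusted p = 0.01). The calls of 4 more genes did not hold in every setting. 3xHMG-box2 differed by -0.64 ± 0.17 (adjusted p = 0.014) and lost the call without replicate 1 or 2 at 24 h, without replicate 2 at 2 h or with only the compared groups in the fit. AT4G12750 differed by -0.48 ± 0.14 (adjusted p = 0.02) and lost it without replicate 1 or 2 at 24 h, without replicate 2 or 4 at 2 h or with only the compared groups. AT1G21670 differed by -0.51 ± 0.15 (adjusted p = 0.029) and lost it without replicate 2 or 3 at 24 h, without replicate 1 or 4 at 2 h or with no filter. AT5G27930, a protein phosphatase of the PP2C family looked at after its values were seen, differed by -0.33 ± 0.10 (adjusted p = 0.03) and lost it in 7 of 20 settings.

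At 24 h against 12 h, 24 of the 43 members were lower and 1, which has no listed gene, was higher, where 42.2% of all probe sets tested were called, 22.2% lower and 20% higher. The median difference was -0.40 in the members against -0.01 over all. AT1G56300 had the largest difference of any member among these comparisons of developing leaves. It gave 19.5, 23.8, 15.7 and 19.2 at 24 h against 331, 268, 292 and 283 at 12 h, a difference of -3.36 ± 0.16 (adjusted p = 9.8e-16). AT2G39920 gave 13.1, 9.56, 8.04 and 6.14 against 60.4, 65.7, 69.5 and 46.2, a difference of -1.88 ± 0.17 (adjusted p = 6.0e-10). No weight is put on that test, since AT2G39920 passed the filter only through its 4 h values. AT3G10020 gave 60.4, 47.0, 68.2 and 45.8 against 145, 84.4, 139 and 135, a difference of -1.05 ± 0.19 (adjusted p = 5.3e-05). The groups did not overlap in any of these 3 genes.

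COR15B followed at -1.03 ± 0.18 (adjusted p = 3.6e-05), AT4G01130 at -1.02 ± 0.13 (adjusted p = 4.1e-07), AT1G33970 at -0.94 ± 0.16 (adjusted p = 2.7e-05), 3xHMG-box2 at -0.84 ± 0.17 (adjusted p = 3.0e-04) and the thaumatin family gene AT4G36010, which passed the filter only through its 4 h values, at -0.73 ± 0.20 (adjusted p = 0.0037). AT4G17100, AT5G62720, AT1G21670 and AT5G27930 had differences of -0.74, -0.58, -0.52 and -0.35 in that order, all called. AT1G51610, of the cation efflux family, differed by -0.58 ± 0.23 (adjusted p = 0.041). Replicate 1 at 24 h was at 7.75 in that gene while the other 3 were between 36.5 and 47.1, and without it the difference was -0.19 (adjusted p = 0.31). Leaving out replicate 2 or 4 at 12 h, using no filter or only the compared groups also ended that call. AT4G15830 at -0.39 ± 0.12 (adjusted p = 0.012) lost its call without replicate 2 at 24 h, without replicate 4 at 12 h or with the first of the 24 h replicate 1 arrays alone, and AT5G57410 at -0.44 ± 0.14 (adjusted p = 0.011) lost it without replicate 2 at 24 h. AT1G54410 at -0.40 ± 0.16 (adjusted p = 0.043) lost it in 10 of 20 settings.

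At 12 h against 2 h, 8 of the 43 members were called, 1 higher and 7 lower, where 38.7% of all probe sets tested were called, 20.4% higher and 18.4% lower. The share of members called lower was thus near that of all probe sets. The 1 higher was AT1G56300, with 331, 268, 292 and 283 at 12 h against 58.8, 52.9, 44.2 and 74.0 at 2 h, a difference of 2.18 ± 0.16 (adjusted p = 2.1e-11). No value of 12 h overlapped one of 2 h, so this gene was high at 4 h and 12 h and low at all other times. AT1G13930 gave 724, 845, 816 and 806 at 12 h against 1329.7, 1420.1, 984 and 1154 at 2 h, with no overlap and a difference of -0.60 ± 0.12 (adjusted p = 3.6e-04). AT5G62720 differed by -0.35 ± 0.13 (adjusted p = 0.034), a call lost in 6 settings, which were no filter and the omission of replicate 1 or 4 at 12 h or of replicate 1, 2 or 4 at 2 h. The other 5 lower have no listed gene.

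**Figure D3:**
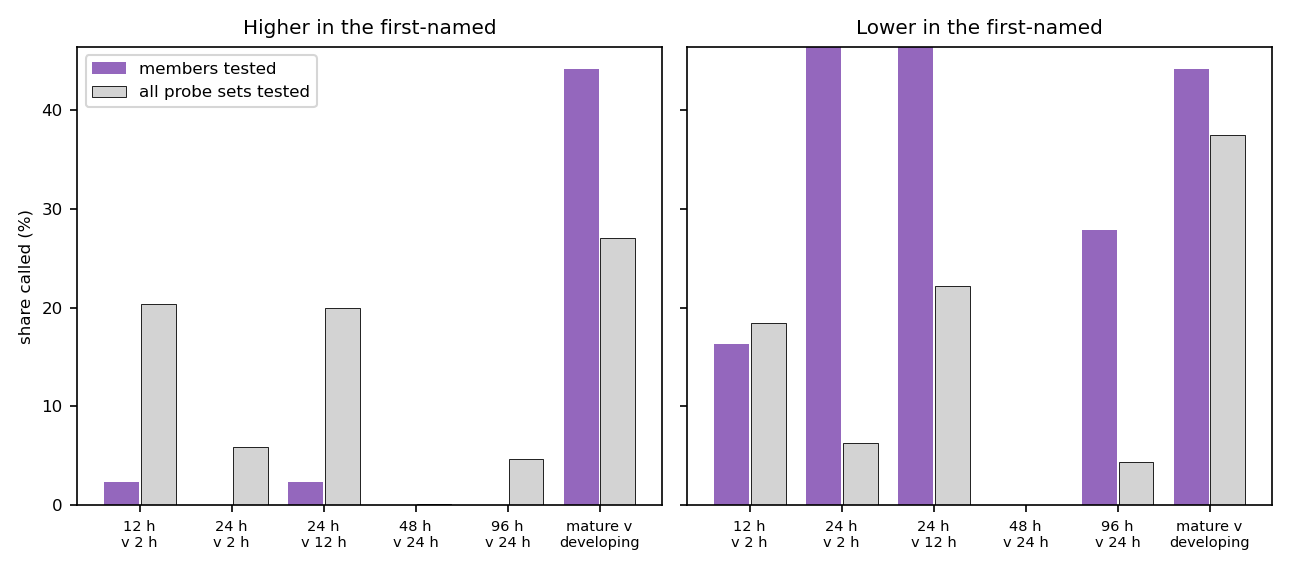
Share of the 43 tested members (purple) and of all 13647 probe sets tested (grey) called higher (left) or lower (right) in the first-named group of each comparison at an adjusted p under 0.05. At 24 h against 2 h 53.5% of members were lower against 6.29% of all probe sets, and at 12 h against 2 h 16.3% against 18.4%. The rule chose the members on the developing means, so all probe sets are not a like background in comparisons of developing leaves.

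No member changed at 48 h against 24 h by limma at an adjusted p under 0.05. At that threshold 0.0659% of all probe sets tested were called, 0.0586% higher and 0.00733% lower. An unadjusted p under 0.05 was found for 8 of the 43. The same count was not made over all probe sets, so nothing is read from the 8. At 96 h against 24 h, 12 of the 43 members were lower and none higher, where 8.96% of all probe sets tested were called, 4.35% lower and 4.62% higher. The median difference was -0.16 in the members against -0.02 over all. A rise in 1 member passed in 6 of the alternative settings. It was COR15A with only the compared groups in the fit (0.59, adjusted p = 0.025) and otherwise 267505_at, which has no listed gene, as with the replicate block (0.39, adjusted p = 0.037). In 23 of the 51 members the means declined in order over 24, 48 and 96 h, a count not made over all probe sets and from which nothing is read.

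Of the 12, 8 have 1 gene. TOPII gave 62.2, 50.9, 35.1 and 57.4 at 96 h against 58.1, 96.9, 133 and 103 at 24 h, groups that overlapped, with a difference of -0.78 ± 0.24 (adjusted p = 0.039). 3xHMG-box2 gave 129, 90.2, 118 and 137 against 141, 148, 288 and 238, without overlap, with a difference of -0.69 ± 0.17 (adjusted p = 0.013). AT5G57410 gave 34.0, 39.8, 41.4 and 38.8 against 57.2, 53.7, 88.5 and 66.3, without overlap, with a difference of -0.64 ± 0.14 (adjusted p = 0.0034). The same comparison gave -0.61 ± 0.12 (adjusted p = 0.0019) for AT4G15830, -0.60 ± 0.15 (adjusted p = 0.0095) for AT5G17160, -0.58 ± 0.15 (adjusted p = 0.011) for AT3G20150 and -0.59 ± 0.16 (adjusted p = 0.02) for AT2G16270, beside the PORB value above. KINESIN-12B at -0.35 ± 0.19 (adjusted p = 0.29) and FU at -0.38 ± 0.14 (adjusted p = 0.097) did not pass. Among the 9 measured genes of the mitosis and cytokinesis list 3 were lower, TOPII, 3xHMG-box2 and 3xHMG-box1, against 4.35% of all probe sets tested. TOPII and 3xHMG-box2 are members, and the list was drawn up after the members' values were seen. Nothing is therefore read from this count.

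Some of these calls rested on single arrays. TOPII lost its call without replicate 2, 3 or 4 at 24 h, without replicate 2, 3 or 4 at 96 h and with no filter, with adjusted p up to 0.16. 3xHMG-box2 lost it without replicate 3 or 4 at 24 h, without replicate 2 at 96 h and with only the compared groups, with adjusted p up to 0.079. AT2G16270 lost it without replicate 3 or 4 at 24 h and without replicate 2 or 4 at 96 h, with adjusted p up to 0.096. AT5G57410, AT4G15830, AT5G17160 and AT3G20150 stayed past the threshold in every setting in which they were tested.

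In mature against developing leaves at 24 h, 38 of the 43 members differed, 19 higher and 19 lower, where 64.6% of all probe sets tested were called, 27.1% higher and 37.5% lower. Differences ran from -3.32 to 3.98 on the log2 scale, with a median of 0.08 against -0.10 over all probe sets. The members thus shared a 4 h maximum in developing leaves and had no common direction with leaf age. The lower ones include the cell division genes and those described with them, and the higher ones the cold-regulated genes and those that follow.

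AT1G33970 gave 140.2 and 147 in mature leaves against 9.30, 11.6, 16.6 and 22.1 in developing leaves at 24 h, a difference of 2.65 ± 0.20 (adjusted p = 3.7e-12). AT1G21670 gave 187 and 249.7 against 55.1, 34.5, 39.1 and 48.2, a difference of 2.08 ± 0.19 (adjusted p = 2.0e-10). AT3G10020 gave 215 and 245 against 60.4, 47.0, 68.2 and 45.8, a difference of 1.89 ± 0.23 (adjusted p = 4.8e-08). In these 3 genes the mature values lay far above the developing ones, and their mature means also passed their 4 h means of 55.5 ± 5.76, 123 ± 26.4 and 178 ± 49.6 in developing leaves (SD, n = 4). AT1G56300 gave 106 and 78.1 against 19.5, 23.8, 15.7 and 19.2, a difference of 1.78 ± 0.19 (adjusted p = 6.7e-09). AT1G13930 gave 2113 and 2392 against 872, 759, 627 and 641, a difference of 1.63 ± 0.15 (adjusted p = 3.4e-10). Both were again without overlap, with AT1G56300 in mature leaves well under its 4 h level and AT1G13930 within or just above its 4 h range.

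AT2G38240 encodes an oxygenase that inactivates jasmonate. It gave 149.9 and 54.2 in mature leaves against 36.2, 27.8, 28.7 and 24.9 in developing leaves, a difference of 1.37 ± 0.34 (adjusted p = 8.4e-04). The mature replicates stood far apart: the difference was 0.71 without mature replicate 1 (adjusted p = 0.13) and 2.03 without mature replicate 2. Its values at 4 h, 27.3, 68.2, 122 and 48.1, were also the most scattered at that time among named members and overlapped those of every other developing time. AT2G39920 gave 51.2 and 20.7 against 13.1, 9.56, 8.04 and 6.14, a difference of 1.19 ± 0.21 (adjusted p = 1.2e-05), and AT4G36010 gave 71.3 and 42.1 against 8.44, 16.1, 31.3 and 24.3, a difference of 1.18 ± 0.24 (adjusted p = 1.1e-04). Here too the mature replicates differed, but both lay above every developing value, and both genes passed the filter only through their 4 h values.

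AT5G27930 gave 107 and 79.1 in mature leaves against 53.2 to 65.9 in developing leaves, a difference of 0.56 ± 0.12 (adjusted p = 2.5e-04), which was 0.36 without mature replicate 1 and still past the threshold. AT4G01130 gave 48.4 and 41.8 against 41.4, 23.5, 31.0 and 34.7, a difference of 0.38 ± 0.16 (adjusted p = 0.038). That call was lost in 9 settings, among them the omission of mature replicate 1 (adjusted p = 0.24) or 2 (adjusted p = 0.059), of developing replicate 2 (adjusted p = 0.14) or 3 (adjusted p = 0.063), no filter (adjusted p = 0.059) and the replicate block (adjusted p = 0.063). The probe set listed with several genes was higher in mature leaves by 3.43. The largest rise, 3.98, was in 248793_at, which has no listed gene.

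**Figure D4:**
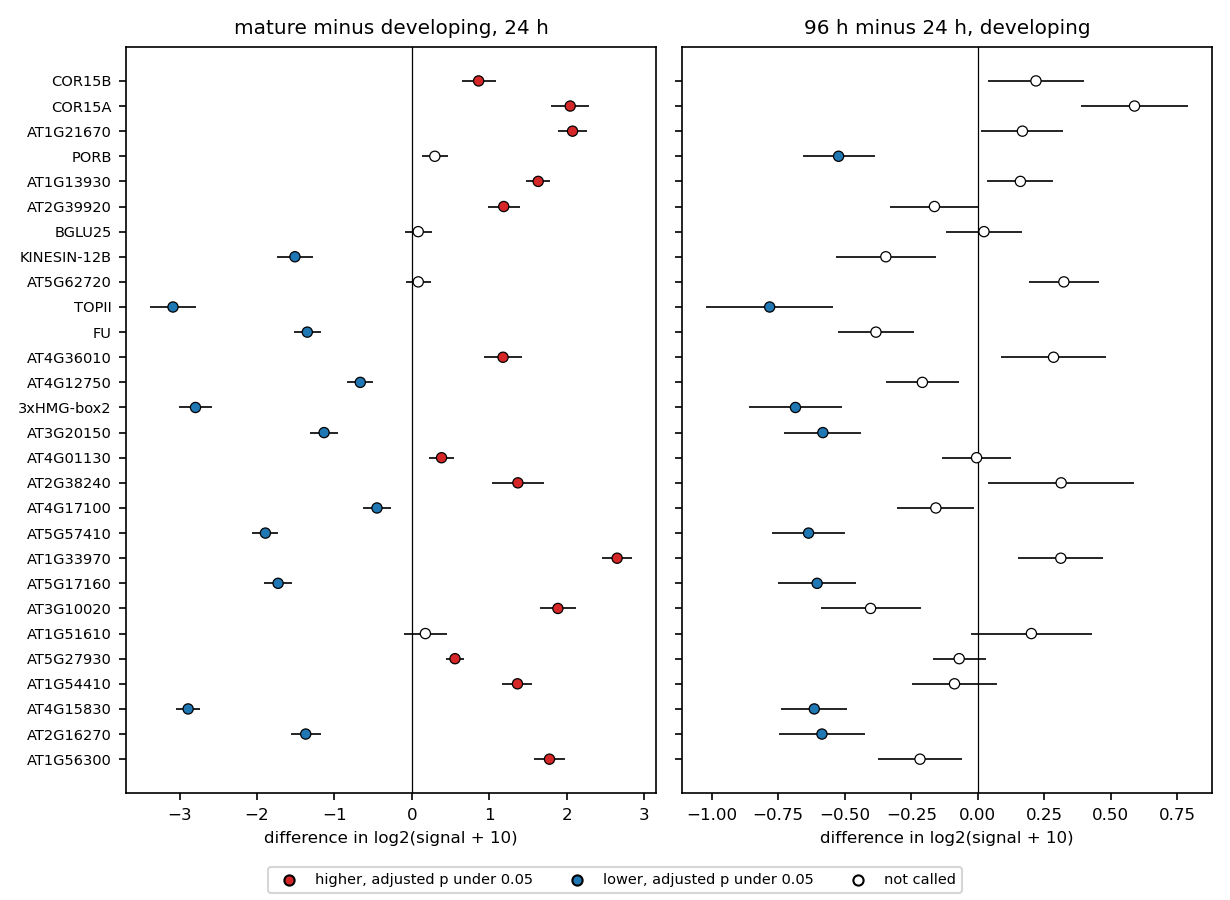
Difference in log2(signal + 10) with its SE for the 28 tested members with 1 gene, ordered by margin, in mature minus developing leaves at 24 h (left) and in 96 h minus 24 h of developing leaves (right). Red and blue mark calls higher and lower at an adjusted p under 0.05, white no call. AT2G39920, KINESIN-12B and AT4G36010 passed the filter only through their 4 h values, so no weight is put on their calls. The left panel holds calls in both directions, from TOPII at -3.08 to AT1G33970 at 2.65, and the right panel only lower calls, and both use the developing 24 h arrays.

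A few named members did not separate the leaf ages. BGLU25, of the beta-glucosidase family, was at 144, 308, 215 and 199 at 4 h and at most 140.2 at every other time in developing leaves, and no tested comparison called it. It gave 122 and 96.3 in mature leaves against 91.3, 98.4, 111 and 108 in developing leaves at 24 h, a difference of 0.08 ± 0.18 (adjusted p = 0.7). AT5G62720 was at 289, 258, 257 and 248 at 4 h, all above its other developing values, and gave 79.9 and 96.7 in mature against 77.3, 75.0, 75.6 and 105 in developing leaves at 24 h, a difference of 0.08 ± 0.16 (adjusted p = 0.67). AT1G51610 differed by 0.18 ± 0.28 (adjusted p = 0.6).

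The 8 members not tested include the one with the largest margin, 249741_at, which has no listed gene and was looked at after its values were seen. It gave 13.6, 15.6, 20.3 and 9.90 (2 h), 127, 102, 104 and 169 (4 h), 33.9, 36.0, 43.5 and 39.9 (12 h), 14.1, 10.3, 6.21 and 9.34 (24 h), 23.1, 9.97, 14.2 and 16.9 (48 h), and 4.49, 9.00, 17.2 and 11.3 (96 h). All its 4 h values lay above those of 12 h, which in turn stood above all the rest, and in mature leaves it was at 2.93 and 2.68. AT1G20030, of the thaumatin family like AT4G36010, gave 16.4, 41.0, 39.0 and 32.9 (2 h), 78.1, 108, 91.9 and 73.1 (4 h), 36.3, 49.9, 46.4 and 59.2 (12 h), 3.07, 4.70, 17.6 and 11.6 (24 h), 5.84, 4.45, 10.9 and 4.03 (48 h), and 3.66, 2.20, 2.64 and 5.81 (96 h). Its 4 h values lay above all others, the values of 24 h to 96 h were no higher than 17.6, and mature leaves gave 35.1 and 35.2 against 3.07, 4.70, 17.6 and 11.6 in developing leaves at 24 h. OTP81, a pentatricopeptide repeat protein of chloroplast RNA editing that was looked at after its values were seen, averaged 55.5 ± 10.2 at 4 h (SD, n = 4), with 2 h values of 27.2, 32.3, 58.7 and 43.0 that overlapped it. In mature leaves it was at 7.41 and 3.04 against 6.19, 18.6, 24.4 and 23.6 in developing leaves.

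Of 16 pathway lists with 164 genes, 25 of them measured under a name, 14 lists with 19 measured genes held no member. Of those 14 lists, 4 had no gene measured under a name. Only 31 members are listed with 1 gene, among 13513 such probe sets, so the absence of a member among 19 genes is not read as a result.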

How the data were processed

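Biotin-labelled target from total leaf RNA was measured on ATH1 arrays. The authors deposited one linear intensity for each probe set, which the submitters' processing notes name as the MAS5 signal. Every array proved to have a 2% trimmed mean of 100. No MAS5 version is stated in the labels, and detection calls were left aside. Array medians were 40.8 to 48.1, and precision is limited by how many arrays there are. Of 28 arrays, 27 entered the groups. Both arrays titled 24 h replicate 1 were combined as their log2 mean and counted once, leaving 26 replicates. Gene names come from the platform's gene table (13513 probe sets with 1 gene, 503 with several, 8730 with none) and from the TAIR10.1 annotation, where 13436 matched.

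Signals were used as log2(signal + 10), so log2 differences understate the change of low genes. Probe sets with a mean above the 40th percentile (signal 27.8) were tested, 13647 in all, in 1 linear model of the 7 groups with limma 3.58.1 in R 4.3.3 (lmFit, eBayes with trend, 19 residual degrees of freedom). Tests were two-sided, adjusted after Benjamini and Hochberg over all probe sets tested, with a threshold of 0.05. No comparison with 4 h was tested, since it chose the members. The limma fit was tried on simulated data with known changes, for 96 h against 24 h and for mature against developing leaves. The rule that chose the members was not tried in that way. Named are the 24 members with 1 gene and the largest margin, members in a gene list, and up to 3 largest rises and falls per comparison. Genes outside this rule are said to be so where they appear. The members and lists were chosen with earlier results of these data known, and the mitosis and DNA replication lists after the members' values were seen. The alternatives tried were 2 other pseudocounts (1 and 50), the low-signal filter dropped, raised to the 60th percentile or applied without the 4 h arrays, scaling by quantiles or by medians, either 24 h replicate 1 array alone, a replicate block, only the compared groups, eBayes without trend, and each replicate left out in turn.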

Additional observations from a re-analysis of the deposited data

Results flagged for a closer look

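In each developing group of 4, the highest or lowest sample was set against the others for the members named, and 9 of 192 groups had a sample far from the rest (4.69%). Chance flags about 1 in 20 groups, or 5%, so the number is near what chance gives.

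The flagged signals were these. AT2G39920 was at 13.2 in replicate 1 at 48 h, with the others between 7.64 and 8.07. KINESIN-12B was at 48.1 in replicate 2 at 12 h, with the others between 34.0 and 36.2. AT5G62720 was at 105 in replicate 4 at 24 h, with the others between 75.0 and 77.3. AT4G36010 was at 19.6 in replicate 1 at 2 h, with the others between 32.9 and 34.6. 3xHMG-box2 was at 458 in replicate 4 at 12 h, with the others between 318 and 337. AT5G17160 was at 123 in replicate 3 at 4 h, with the others between 146 and 147. AT3G10020 was at 84.4 in replicate 2 at 12 h, with the others between 135 and 145. AT1G54410 was at 648 in replicate 3 at 2 h, with the others between 843 and 879, and at 832 in replicate 1 at 24 h, with the others between 483 and 526. None of these samples is shared by more than 2 of the genes.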

How the results depend on the processing

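Of 67 calls of named members, 50 stayed past the threshold in every alternative in which the gene was tested and 17 were lost in at least 1. Over 1251 alternatives for these calls, 1168 kept the call, 83 lost it and 0 turned its direction. The count of probe sets meeting the 4 h rule was 51, and 23 with a pseudocount of 50, which shrinks differences of low signals. It was 62 with a pseudocount of 1, and 48 to 67 with a replicate left out in turn. Without replicate 1 of any group, an alternative chosen after seeing the data, it was 54, of which 40 were members. A filter at the 60th percentile, which tests fewer probe sets and only 25 members, left 5 of these changed at 12 h against 2 h, 17 at 24 h against 2 h, 18 at 24 h against 12 h, 7 at 96 h against 24 h and 21 between mature and developing leaves. Of all 9098 probe sets tested with that filter, 4221, 1504, 4458, 1012 and 6507 were called in the same order. Leaving out each replicate gave 6 to 9 members changed at 12 h against 2 h, 17 to 23 at 24 h against 2 h, 20 to 25 at 24 h against 12 h, 0 to 0 at 48 h against 24 h, 8 to 13 at 96 h against 24 h and 35 to 39 between leaf ages. These ranges show only how steady the counts were. The shares over all probe sets are not set beside them, so nothing is read from them about the members. The replicate numbers were not used as pairs, since only 28 of 60 same-numbered pairs of developing samples had correlated deviations over 0.1. The median correlation was 0.086 for the same number and -0.031 for different numbers, and 14 of 24 samples correlated best with their own number, a hint from the data and not from the design. With the number as a replicate block the counts were 7, 24, 24, 0, 14 and 37 for 12 h against 2 h, 24 h against 2 h, 24 h against 12 h, 48 h against 24 h, 96 h against 24 h and leaf age. Of all 13647 probe sets tested, the block called 5609, 1907, 6064, 11, 1474 and 8830 in the same order. The arrays titled 24 h replicate 1 correlated at 0.979, and other 24 h pairs at up to 0.982. Signals near the filter limit what can be called, and 8 members were too low to be tested.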

Other observations

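One array titled 4 h replicate 1 carries a treatment note of 4 h ES, where the others carry AS, and was assigned to no group. Its signal lay above the highest mean of the other developing times in 45 of the 51 members. It lay within the range of the 4 h values in 25 members, below it in 19 and above it in 7. These counts set 1 array against group means and ranges and were not made over all probe sets, so nothing is read from them.

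On that array COR15B was at 365, within its 4 h range, and COR15A was at 105, below the lowest of its 4 h values. AT2G38240 was at 28.1, close to the lowest of its scattered 4 h values. PORB was at 2823, AT1G56300 at 406 and TOPII at 178, within their 4 h ranges, and 3xHMG-box2 was at 661 and AT4G01130 at 150.4, above theirs.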
